A study of Homo sapiens with 4 samples.

Results

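Genes of transforming growth factor β (TGF-β), activin and bone morphogenetic protein (BMP) signalling were followed, 10 in number, across 4 RNA-seq libraries of A549, a human lung adenocarcinoma cell line. The members were taken by gene symbol from a count matrix of 57905 genes, and all 10 were present once: the ligand genes TGFB1, TGFB2, INHBA, INHBB and BMP4, the secreted antagonist FST, the receptor gene TGFBR2, the inhibitor SMAD7 and the target genes ID1 and ID3. The cells were stable lines made, as the study describes, with lentivirus, no further treatment is named for them, and the question was what DCBLD2, a transmembrane protein, does in these cells. One pair of lines carried the blasticidin-selected pLV-EF1-MCS-IRES-Bsd vector, either empty (Vec, here the empty vector library) or with the DCBLD2 coding sequence under the EF1 promoter (OE, labelled DCBLD2 overexpression). The other pair was a scramble control (sc) and a DCBLD2 short hairpin line (shD5, here shDCBLD2), for which the study describes the puromycin-selected pLV-H1-EF1α-puro vector; which of its hairpins the sequenced line carried is not given in the sources used here. Each condition was 1 library, so every ratio compares 2 libraries rather than 2 conditions, no replicate could be checked, and p-values are left out.

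TGF-β and activin ligands bind pairs of serine/threonine kinase receptors that phosphorylate SMAD2 and SMAD3, whereas BMP ligands act through SMAD1, SMAD5 and SMAD9. The activated SMADs enter the nucleus with SMAD4 and switch target genes, among them SMAD7, which blocks the receptors in return, and, downstream of BMPs, the ID genes. In epithelial cells of the lung and other organs, TGF-β is known as an inducer of epithelial-mesenchymal transition, and follistatin, the product of FST, traps activins outside the cell.

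The genes that differed most between the libraries were ligand genes and FST. INHBB and BMP4 were highest in the library labelled DCBLD2 overexpression and lowest in the shDCBLD2 library, while INHBA had the opposite order, lowest in the former and highest in the latter. TGFB2 and FST were lowest in the library labelled overexpression. TGFB1, TGFBR2, SMAD7, ID1 and ID3 differed by less than 2-fold in each comparison. In the following, levels are CPM, counts relative to the scaled library total, a ratio is a log2 ratio of scaled counts after addition of a prior count of 2, and its 95% interval is an exact interval that covers counting error only. A gene was called higher or lower where the ratio was at least 2-fold and the interval left out no change. The library labelled overexpression was compared with the empty vector library and the shDCBLD2 library with sc; these comparisons share no library. The empty vector library was also compared with sc, as 2 control lines that differ in plasmid and selection, and that comparison shares 1 library with each of the others.

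INHBB encodes the βB subunit of activin and inhibin. It was read 1235 times in sc, 356 times in the shDCBLD2 library, 663 times in the empty vector library and 1661 times in the library labelled overexpression. These counts correspond to 63.1, 16.5, 36.1 and 101 CPM. All 4 levels differed beyond counting error, in the order shDCBLD2, empty vector, sc, labelled overexpression, and the highest was 6.1 times the lowest. Against the empty vector, the library labelled overexpression was 2.78-fold higher, a log2 ratio of 1.48 (interval 1.35 to 1.61). Against sc, the shDCBLD2 library was 3.81-fold lower, a log2 ratio of -1.93 (-2.11 to -1.76). The empty vector library itself lay 1.75-fold under sc, which was under the 2-fold limit, so both called differences were larger than that between the control lines. Against sc in place of the empty vector, however, the library labelled overexpression was only 1.59-fold higher and was not called, whereas shDCBLD2 was also called lower against the empty vector, by 2.18-fold.

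BMP4, a BMP ligand, had the same order of libraries as INHBB. Its counts were 406 in sc, 121 in shDCBLD2, 300 in the empty vector and 814 in the labelled overexpression library, or 20.8, 5.61, 16.3 and 49.3 CPM. The span from lowest to highest was 8.79-fold, and all neighbours in the order differed beyond counting error. The log2 ratio was 1.59 (interval 1.40 to 1.79) for labelled overexpression against the empty vector, a 3.0-fold higher level, and -1.87 (-2.19 to -1.59) for shDCBLD2 against sc, a 3.65-fold lower level. The control lines differed 1.27-fold. Unlike for INHBB, both calls also held against the other control library, where BMP4 was 2.37-fold higher in the library labelled overexpression and 2.88-fold lower in the shDCBLD2 library.

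INHBA encodes the βA subunit, whose homodimer is activin A, and was the least counted member. It was read 73 times in sc, 279 times in shDCBLD2, 29 times in the empty vector and 12 times in the labelled overexpression library. In CPM these were 3.73, 12.9, 1.58 and 0.727, with exact counting intervals of 2.93 to 4.69, 11.5 to 14.5, 1.06 to 2.27 and 0.376 to 1.27. The shDCBLD2 library stood above all others, and the highest level was 17.8 times the lowest, the widest span among the members. INHBA was 3.40-fold higher in shDCBLD2 than in sc, a log2 ratio of 1.77 (1.42 to 2.19), and 7.74-fold higher than in the empty vector library. In the library labelled overexpression it was 2.02-fold lower than in the empty vector library, but on 12 and 29 counts the log2 ratio of -1.02 had an interval of -2.23 to -0.11, and the call was lost with library totals in place of the scaling factors, with a prior count of 5 or with the deposited FPKM. The control lines were themselves apart by more than this, with INHBA 2.28-fold lower in the empty vector library than in sc (log2 ratio -1.19, interval -1.91 to -0.60). Only the difference between shDCBLD2 and sc was thus larger than that between the control lines.

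Levels of different genes are compared per length, as FPKM, which relate counts to the deposited exonic gene size and library total. The length of the transcripts present in these cells was not determined. INHBB exceeded INHBA in every library, at 20.2 against 0.51 FPKM in sc and 31.2 against 0.10 FPKM in the labelled overexpression library. The ratio of INHBA to INHBB was 0.0251 in sc (interval 0.0196 to 0.0319) and 0.0186 in the empty vector library (0.0124 to 0.0270), and these intervals overlap. It reached 0.333 in the shDCBLD2 library (0.284 to 0.391) and was 0.00307 in the labelled overexpression library (0.00158 to 0.00538). Per length, the INHBB level was therefore 3.0 times that of INHBA in the shDCBLD2 library (interval 2.56 to 3.52). In the labelled overexpression library it was 325 times that of INHBA, with a wide interval of 186 to 631 on 12 INHBA counts.

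**Figure D1:**
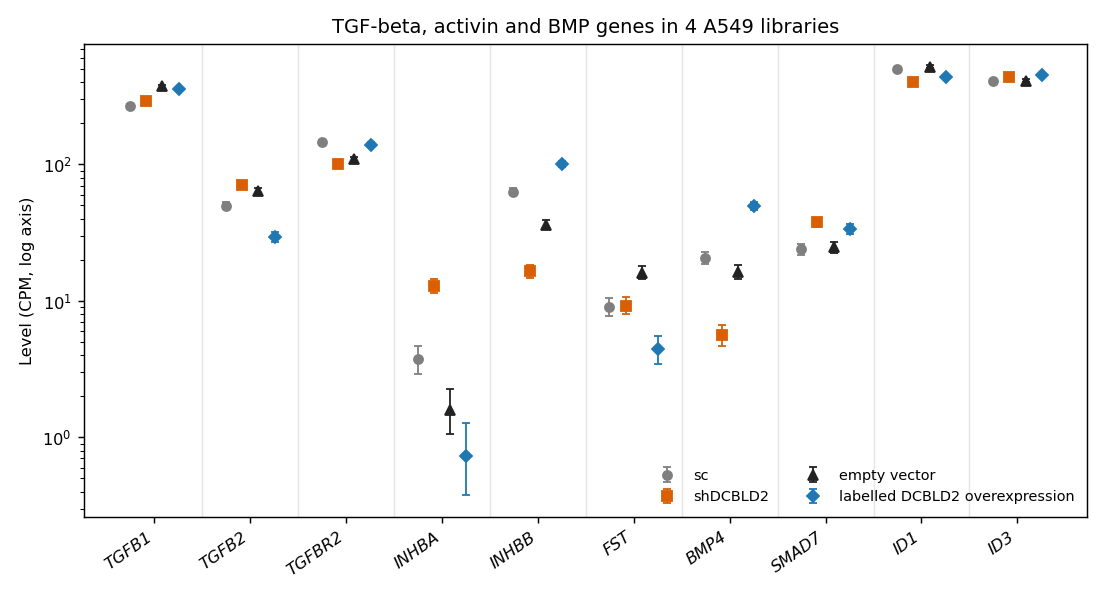
Level of each member in the 4 libraries, in CPM on a log axis; each symbol is 1 library and each bar its exact 95% counting interval. INHBB and BMP4 run from 16.5 and 5.61 CPM in the shDCBLD2 library to 101 and 49.3 CPM in the labelled overexpression library, INHBA runs the other way, and ID1 and ID3 stay between 399 and 520 CPM in all libraries.

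Because INHBB and BMP4 shared their order of libraries and INHBA had the reverse, the promoters of these 3 genes are shown, as the 250 bases before the start in RefSeq on GRCh38.p14. INHBA lies on the minus strand, at chr7:41703091-41703340, INHBB on the plus strand, at chr2:120345886-120346135, and BMP4 on the minus strand, at chr14:53955051-53955300 for the first of its 3 listed starts. Capitals mark matches on either strand to CAGAC, the short SMAD-binding element, to GGCGCC, a GC-rich SMAD element, and to TATAAA, the TATA box. A reverse-strand match is in capitals as it reads on the strand printed.
INHBA: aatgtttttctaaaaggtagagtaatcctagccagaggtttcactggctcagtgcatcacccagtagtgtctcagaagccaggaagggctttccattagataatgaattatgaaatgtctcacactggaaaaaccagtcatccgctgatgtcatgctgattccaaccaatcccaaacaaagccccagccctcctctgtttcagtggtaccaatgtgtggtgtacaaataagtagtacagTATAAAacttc
INHBB: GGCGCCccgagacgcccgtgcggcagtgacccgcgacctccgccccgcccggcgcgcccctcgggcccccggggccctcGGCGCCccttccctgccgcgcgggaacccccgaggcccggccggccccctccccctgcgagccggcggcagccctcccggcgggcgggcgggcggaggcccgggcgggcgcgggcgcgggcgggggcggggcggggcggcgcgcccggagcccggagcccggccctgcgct
BMP4: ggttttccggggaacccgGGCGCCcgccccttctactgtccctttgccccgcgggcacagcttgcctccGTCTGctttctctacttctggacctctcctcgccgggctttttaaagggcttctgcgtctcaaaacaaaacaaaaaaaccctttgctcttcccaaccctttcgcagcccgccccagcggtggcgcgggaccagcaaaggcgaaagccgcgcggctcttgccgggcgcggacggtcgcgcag
The INHBA window was 42.8% G and C with 1 CpG, and its only marked match was a TATA box 11 to 6 bases before the start. The INHBB window was 89.6% G and C with 46 CpG and held GGCGCC at 250 to 245 and again at 171 to 166 bases before the start. BMP4 was 63.6% G and C with 25 CpG, with GGCGCC at 232 to 227 bases and a reverse-strand CAGAC at 181 to 177 bases before the start. Of the other BMP4 windows, the second held none of the motifs and the third only a reverse-strand CAGAC, at 46 to 42 bases, so GGCGCC was in the first alone. Over all 34788 RefSeq windows of this length the median was 58.0% G and C with 11 CpG. CAGAC was found in 38.0% of those windows, GGCGCC in 16.4% and TATAAA in 10.8%, and none of the motifs searched contains another. The AP-1 element TGACTCA (4.21% of windows), the TCF element CTTTGAT (2.27%) and the SMAD palindrome GTCTAGAC (0.178%) were searched too and are in none of the 15 windows of the 10 members. A match describes these letters only.

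TGFB1 and TGFB2 encode 2 of the TGF-β ligands. TGFB2 counts were 977 in sc, 1517 in shDCBLD2, 1166 in the empty vector and 486 in the labelled overexpression library, at 49.9, 70.3, 63.5 and 29.4 CPM. The library labelled overexpression was the lowest and shDCBLD2 the highest, with all neighbours in the order apart beyond counting error. Against the empty vector, TGFB2 was 2.15-fold lower in the library labelled overexpression (log2 ratio -1.11, interval -1.27 to -0.96), larger than the 1.27-fold difference between the control lines. Against sc it was 1.69-fold lower and not called. Against sc, shDCBLD2 was 1.41-fold higher, a log2 ratio of 0.49 (0.38 to 0.61), which did not reach the limit.

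TGFB1 was read 5229, 6277, 6831 and 5922 times in sc, shDCBLD2, the empty vector and the labelled overexpression library, at 267, 291, 372 and 359 CPM. Its log2 ratios were -0.05 for labelled overexpression against the empty vector, 0.12 for shDCBLD2 against sc and 0.48 for the empty vector against sc, so that the widest difference of the 3 was between the control lines. The gene overlaps 4 other entries of the table on the opposite strand, one of them with 55654 counts over the libraries, and whether strand was used in counting is not given in the sources used here; its count is therefore uncertain. Per length, TGFB1 made up 86.6% to 94.9% of the summed TGFB1, TGFB2 and TGFB3 levels, and TGFB3 was at most 0.29 FPKM. The ratio of TGFB2 to TGFB1 was 0.0516 in the labelled overexpression library (0.0469 to 0.0566), below the 0.107 of the empty vector (0.101 to 0.114), and 0.152 in shDCBLD2 (0.144 to 0.161), above the 0.117 of sc (0.110 to 0.126).

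FST counts were 176 in sc, 199 in shDCBLD2, 296 in the empty vector and 73 in the labelled overexpression library, at 9.0, 9.23, 16.1 and 4.42 CPM. The empty vector library was the highest and the library labelled overexpression the lowest, while sc and shDCBLD2 did not differ beyond counting error (log2 ratio 0.04, interval -0.26 to 0.34). FST was 3.58-fold lower in the library labelled overexpression than in the empty vector library, a log2 ratio of -1.84 (-2.26 to -1.49). Since the empty vector library lay 1.78-fold above sc, the same difference against sc was only 2.01-fold. The ratio of FST to INHBA per length, antagonist to ligand subunit, was 6.12 in sc (4.63 to 8.15), 1.81 in shDCBLD2 (1.5 to 2.18), 25.9 in the empty vector (17.7 to 39.3) and 15.4 in the labelled overexpression library (8.32 to 31.2). The first 2 intervals are apart and the last 2 overlap.

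**Figure D2:**
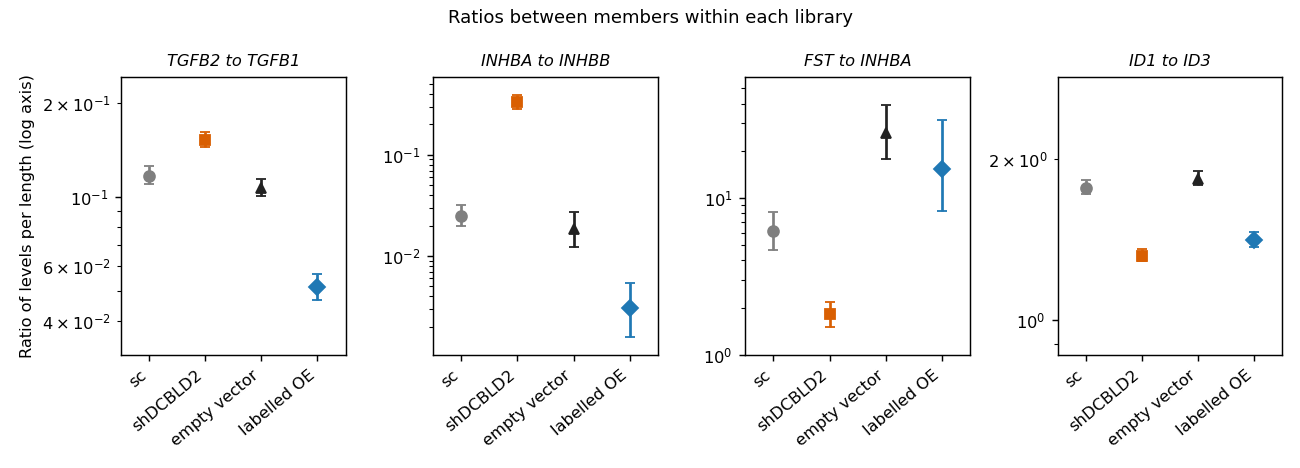
Ratios of 2 members' levels per length within each library, on log axes, with exact 95% counting intervals. INHBA to INHBB spans from 0.00307 in the labelled overexpression library to 0.333 in the shDCBLD2 library, and ID1 to ID3 only from 1.32 to 1.84.

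TGFBR2 encodes the type II receptor that binds TGF-β ligands. It was read 2868 times in sc, 2163 times in shDCBLD2, 1999 times in the empty vector and 2293 times in the labelled overexpression library, at 147, 100.3, 109 and 139 CPM. The library labelled overexpression and sc, the top of the order, did not differ beyond counting error. The log2 ratios were 0.35 for labelled overexpression against the empty vector, -0.55 for shDCBLD2 against sc and -0.43 for the empty vector against sc, none of them called.

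The inhibitor SMAD7 and the target genes ID1 and ID3 were not called in any comparison either. SMAD7 was read 467, 810, 453 and 557 times in sc, shDCBLD2, the empty vector and the labelled overexpression library, or 23.9, 37.6, 24.7 and 33.8 CPM. The control libraries did not differ beyond counting error, nor did the other two, which were both higher. Its log2 ratios were 0.65 (0.49 to 0.82) for shDCBLD2 against sc and 0.45 (0.27 to 0.63) for labelled overexpression against the empty vector, 1.57-fold and 1.37-fold. ID1, an inhibitor of basic helix-loop-helix factors, had 9730, 8596, 9543 and 7193 counts in the same order, at 497, 399, 520 and 436 CPM. ID3, of the same family, had 7992, 9467, 7541 and 7416 counts, at 409, 439, 411 and 449 CPM. ID1 spanned 1.30-fold and ID3 1.10-fold over the libraries, the narrowest of the members. In both comparisons ID1 was on the lower side, by log2 ratios of -0.26 and -0.32, and ID3 on the higher side, by 0.13 and 0.10, and the ratio of ID1 to ID3 per length was 1.32 in shDCBLD2 and 1.41 in the labelled overexpression library against 1.77 in sc and 1.84 in the empty vector.

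**Figure D3:**
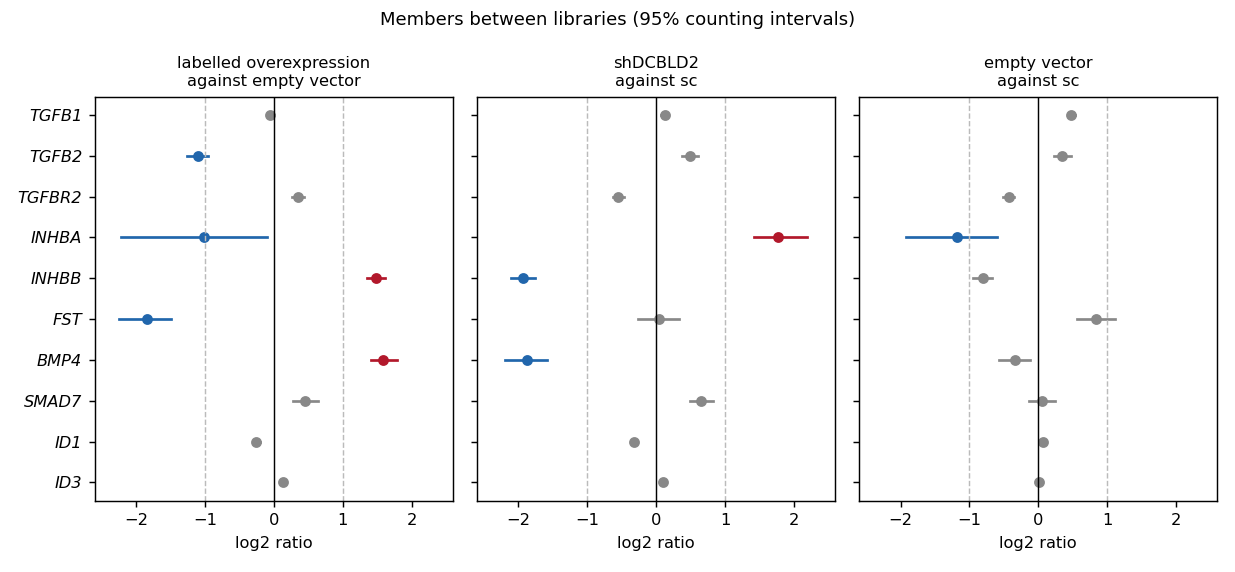
Log2 ratio of each member with its exact 95% counting interval in the 3 comparisons; red marks genes called at least 2-fold higher, blue at least 2-fold lower, grey the rest, and dashed lines the 2-fold limits. INHBB and BMP4 are at 1.48 and 1.59 on the left and at -1.93 and -1.87 in the middle, and INHBA is the 1 member called between the control lines, at -1.19.

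In counts, 2 of the 10 members (INHBB and BMP4) were called higher in the library labelled overexpression than in the empty vector library, where 6.42% of the 13966 genes with a mean of at least 1 CPM were, and 3 (TGFB2, INHBA and FST) were called lower, where 5.35% of all genes were. Against sc, 1 member (INHBA) was called higher in the shDCBLD2 library and 2 (INHBB and BMP4) lower, beside 1.16% and 5.62% of all genes. Between the control lines no member was called higher and 1 (INHBA) lower, beside 2.22% and 1.89%. All 10 members passed the filter. Their median log2 ratios, 0.04, 0.07 and 0.03 in these comparisons, were near the -0.04, 0.01 and -0.01 of all genes, since members moved in both directions; the median size of the ratio regardless of sign was 0.73, 0.52 and 0.39, against 0.39, 0.26 and 0.25 for all genes. These members had been picked with earlier results in view, so the counts describe them and are no evidence about the pathway.

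The check of the targeted gene bears on how the libraries are named. DCBLD2 stood at 504 CPM in sc, 197 CPM in shDCBLD2, 434 CPM in the empty vector and, under the overexpression label, at 242 CPM, where it was thus 1.79-fold lower than in its control rather than higher; in shDCBLD2 it was 2.55-fold lower than in sc. The labelled overexpression library was also alone in reading 66 genes 50 times or more (each other library had 3 counts or fewer of each), none of them a member, and listed CDKN2A, which is known to be deleted in A549, with 2104 counts against 0 in every other library. Of 2 further genes listed from the same deletion, CDKN2B had 7 counts against 0 in every other library. MTAP had 104, against 9 in sc, 33 in shDCBLD2 and 11 in the empty vector. It was called higher in labelled overexpression against the empty vector and also in shDCBLD2 against sc (log2 ratios 3.2 and 1.5). All 8 epithelial markers were above 3 counts in each library, summed to 26100 CPM in sc, 15200 in shDCBLD2, 20200 in the empty vector and 24900 in the labelled overexpression library. For 5 of them (KRT8, KRT18, EPCAM, CDH1 and ALDH3A1) the libraries fell in the order given for INHBB and BMP4. Of the rest, KRT19 was also lowest in shDCBLD2 and highest in labelled overexpression. ALDH1A1, however, was lowest in labelled overexpression, at 3415 CPM against 5645 CPM in the empty vector. AKR1B10 was highest in sc, and stood at 2322 CPM in labelled overexpression against 2417 CPM in the empty vector. CDH1, the E-cadherin gene, stood at 53.7, 10.2, 45.3 and 66.8 CPM in the sequence of the sums, 5.22-fold lower in shDCBLD2 than in sc, where EPCAM, KRT19 and ALDH3A1 were called lower too; KRT19 and EPCAM were called higher in labelled overexpression against the empty vector. Fibroblast markers above 3 counts were 6, 5, 5 and 8 of 10 in sc, shDCBLD2, the empty vector and the labelled overexpression library (summed 38.2, 59.4, 45.5 and 82.3 CPM), with DCN and LUM at 4 and 1 counts in the last and at 0 elsewhere and FAP at 0 in all. Of the other fibroblast markers, 3 were called higher in the last library against the empty vector. POSTN had 42 counts against 0 in each other library, COL1A2 had 67 against 17, 1 and 0, and COL3A1 had 68 against 9, 18 and 6. COL1A1, PDGFRA and PDGFRB were not called in that comparison (log2 ratios 0.83, 0.37 and 0.39), nor was THY1, at -0.33. No endothelial marker of 3 was above 3 counts, and of 5 blood markers 1, 1, 1 and 2 were, with PTPRC at 0 in all. The part of these differences in the members' values was not tested, and in such bulk RNA fewer cells of a kind and less RNA per cell cannot be told apart. Ratios between shDCBLD2, sc and the empty vector use no count of that library, though it entered the scaling factors and the filter; with factors made without it, no call of a member changed in the 2 comparisons with sc (shDCBLD2 and the empty vector). Totals ran from 16601633 to 21537283 counts, a 1.30-fold range.

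To set the members among their pathway, 122 genes of TGF-β, activin and BMP signalling were listed by role, including the members; 91 passed the filter. In labelled overexpression against the empty vector, 17 were called higher and 3 lower, the 3 being the members TGFB2, INHBA and FST. Without the members it was 15 higher and 0 lower of 81, beside 6.42% higher and 5.35% lower of all genes, and the median log2 ratio was 0.26 against -0.04. For shDCBLD2 against sc, 6 were called higher and 3 lower of those 81, beside 1.16% and 5.62% of all genes. Between the control lines it was 5 and 5, beside 2.22% and 1.89%. The list was written with earlier results known as well.

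Among the other ligand genes of the list, BMP7 stood out in the library labelled overexpression, with 461 counts against 37 in the empty vector, 25 in sc and 24 in shDCBLD2, a log2 ratio of 3.72 (3.31 to 4.32) against the empty vector. BMP2 and BMP6, named here after their values were seen, were also called higher there, by log2 ratios of 1.41 and 1.26. BMP8B, added likewise, was not called, at 0.17. Nor was BMP1, at 0.87, which was listed with the ligands although it encodes a protease. Of the 14 genes listed as ligands that passed the filter, members and BMP1 included, 5 were called higher (BMP2, BMP4, BMP6, BMP7 and INHBB) and 2 lower. Of all genes, 6.42% were called higher and 5.35% lower. In shDCBLD2 against sc BMP7 had a log2 ratio of -0.18, BMP2 of -0.90 and BMP6 of 0.08, none called, unlike BMP4. BMP6 shares positions with TXNDC5, which limits how far its count can be read. GDF15, a stress-induced ligand of the family, was 2.78-fold higher in the empty vector than in sc, a log2 ratio of 1.48, and was called lower in shDCBLD2 against sc (-1.01).

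Extracellular regulators were called in both directions. LRRC32, which holds latent TGF-β at the cell surface, was read 24, 4, 45 and 173 times in sc, shDCBLD2, the empty vector and the labelled overexpression library, and so had the highest level where INHBB and BMP4 had theirs and the lowest where they had theirs. Its log2 ratios were 2.05 (1.62 to 2.6) against the empty vector and -2.2 (-4.71 to -1.19) for shDCBLD2 against sc. BMPER, a BMP-binding protein, was 2.72-fold higher in shDCBLD2 than in sc, with 403 against 133 counts. CHRD, the BMP antagonist chordin, had 3 counts in sc, 5 in shDCBLD2, 21 in the empty vector and 62 in the labelled overexpression library. It was called higher in the empty vector than in sc, at a log2 ratio of 2.27 with an interval of 1.16 to 5.29. In labelled overexpression it was called higher than in the empty vector, at 1.63 (0.98 to 2.50). CHRD shares positions with EIF2B5. CHRDL2, a relative of chordin, was at 10 counts in the empty vector against 24 in sc (-1.03, interval -2.40 to -0.05).

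Of the receptor group, 13 genes passed the filter. In labelled overexpression against the empty vector 2 were called, both higher, beside 6.42% higher and 5.35% lower of all genes. Called or not, 7 of the 13 had a ratio above 0 and 6 below. Among the latter were the BMP receptor genes BMPR1A, BMPR1B and BMPR2, added after their values were seen. They were not called, at -0.67, -0.71 and -0.64. RGMA, a BMP co-receptor, rested on 3 counts in the empty vector library and 321 under the overexpression label, a log2 ratio with an interval of 5.34 to 9.18, and had 5 counts in sc and 1 in shDCBLD2. Of the SMADs and cofactors, 11 passed the filter, with a median log2 ratio of -0.11 in labelled overexpression against the empty vector. There 1 was called higher and 0 lower (6.42% and 5.35% of all genes). It was SMAD9, a BMP-responsive SMAD, with 96 counts against 19 (2.38, interval 1.77 to 3.28). SMAD1 to SMAD5, added after their values were seen, were not called. SMAD1 was at 0.38, and SMAD2, SMAD3, SMAD4 and SMAD5 were at -0.76, -0.54, -0.55 and -0.47. The coactivator gene EP300 was 2.11-fold lower in the empty vector than in sc. LDLRAD4, an inhibitor of TGF-β signalling inside the cell, had 114 counts against 16 in the labelled overexpression comparison (2.84, interval 2.23 to 3.84).

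Of the target genes, 22 passed the filter. In labelled overexpression against the empty vector 4 were called higher and none lower (6.42% and 5.35% of all genes), led by FN1, the fibronectin gene, with 38672 against 6644 counts (log2 ratio 2.69, interval 2.66 to 2.73). FN1 was also 3.09-fold lower in the empty vector than in sc, where it had 21915 counts, so that against sc the difference of the library labelled overexpression was 1.06 on the log2 scale. In shDCBLD2 against sc 3 were called higher and none lower (1.16% and 5.62% of all genes). Of the 22 targets 17 had a ratio above 0 there, with a median log2 ratio of 0.41 against 0.01 for all genes; in labelled overexpression against the empty vector it was also 17 of 22, with a median of 0.41 against -0.04. JUNB, which encodes an AP-1 subunit, was 2.31-fold higher in the empty vector than in sc. ID4, added here after its values were seen as a relative of ID1 and ID3, was 5.68-fold higher in the library labelled overexpression than in the empty vector, at 325 against 62 counts. The empty vector was the lowest library for ID4, at 3.38 CPM against 7.26 CPM in sc, 7.84 CPM in shDCBLD2 and 19.7 CPM in labelled overexpression. ID2, added likewise, had a log2 ratio of -0.10 for labelled overexpression against the empty vector.

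**Figure D4:**
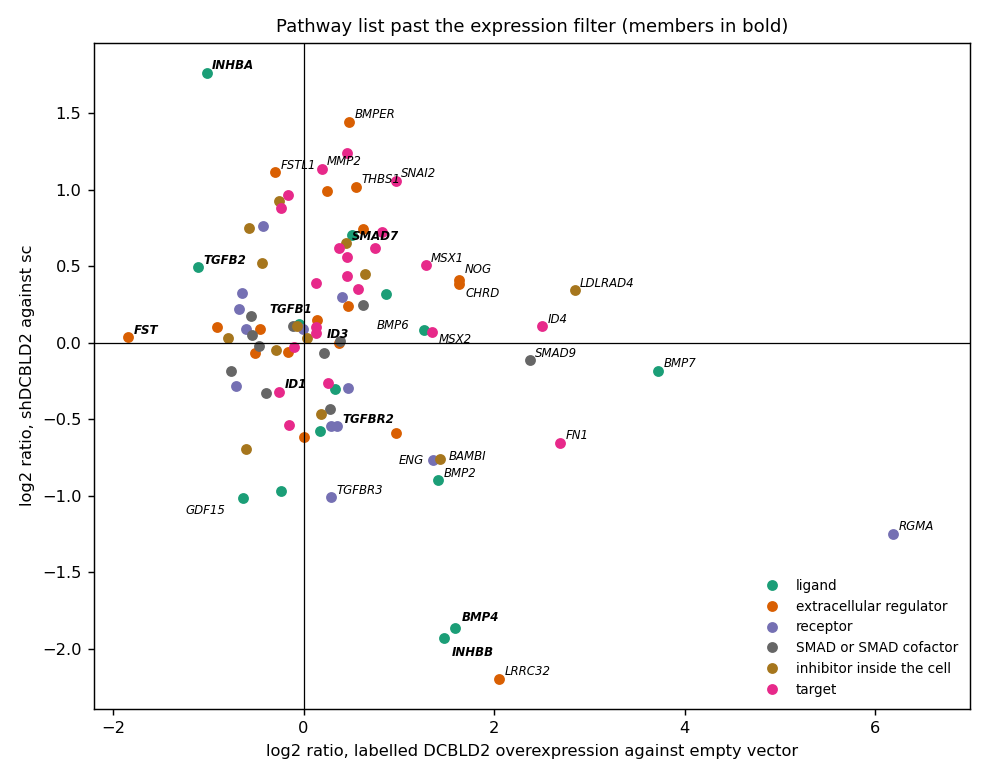
Log2 ratio of labelled DCBLD2 overexpression against the empty vector (horizontal) and of shDCBLD2 against sc (vertical) for the 91 listed genes past the filter; each point is 1 gene, coloured by role, with members in bold and most other genes that either comparison called named. INHBB, BMP4 and LRRC32 sit at the lower right, INHBA alone at the upper left beyond 2-fold in both, and most genes called higher in the library labelled overexpression lie at vertical values within 1 of 0.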

How the data were processed

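Poly(A) RNA of 4 A549 lines, 1 library each, was sequenced by the authors. The deposited counts are whole reads per gene for 57905 human Ensembl genes, not normalized; the deposited FPKM equal, for all genes within rounding, counts scaled to kilobases of the deposited exonic gene size and to the library total. The count columns of the per-sample files and of the matrix were identical. Aligner, counter, annotation and strand setting are not given in the sources used here; the submitters' processing notes name the build mm9, a mouse build, although the genes are human, so the deposited coordinates were used only to find overlapping entries.

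Groups were taken from the labels. Counts were scaled by TMM factors (edgeR 4.0.16 in R 4.3.3) over the 4 libraries. Log2 ratios used a prior count of 2; 95% intervals are exact Clopper-Pearson intervals of the share of 2 counts, and those of CPM exact Poisson intervals. Neither kind says anything of the spread between cultures. Genes with a mean of at least 1 CPM entered summaries, 3 counts were the floor, and a call needed a 2-fold ratio. The calculation was tested on made-up counts with known answers. The members and lists were chosen with earlier results of these data known. Named were all members, DCBLD2, marker genes and, from the pathway list, the highest and lowest called gene of each role in each comparison; 1 gene of this rule is not reported here, and others are said to have been added. Promoters come from RefSeq (GRCh38.p14), which matched 10 of 10 members. Alternatives were DESeq2 1.42.0 size factors, library totals, FPKM with a pseudocount of 0.1, TMM without the labelled overexpression library, prior counts of 0.5 and 5, no filter or a mean of 5 CPM, a 1.5-fold limit and the other control library.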

Additional observations from a re-analysis of the deposited data

How the results depend on the processing

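Of 247 member values over 9 alternatives, the 1.5-fold limit aside, 241 kept their call. The 6 that did not were INHBA in labelled overexpression against the empty vector with library totals (-0.999), a prior count of 5 (-0.90) and FPKM (-0.63), INHBA in the empty vector against sc with FPKM (-0.98), and, with sc as the control of the library labelled overexpression, TGFB2 (-0.76) and INHBB (0.67). No result turned its direction while called. Between the control lines, library totals or FPKM took ID3 from 0.01 to -0.05 and the member median from 0.03 to -0.03. With sc as control, 3 members rather than 5 were called in the library labelled overexpression; with the empty vector as control of shDCBLD2, the member median was -0.24 rather than 0.07. At a mean of 5 CPM, INHBA left the tested genes, the member median in labelled overexpression was 0.13 rather than 0.04, and 0 members rather than 1 were called between the control lines, as with FPKM; the pathway list then had 11 rather than 20 calls in labelled overexpression and 6 rather than 11 between the control lines. A 1.5-fold limit gave 36 calls of the list in labelled overexpression, 29 rather than 12 in shDCBLD2 and 19 between the control lines, with 3 rather than 1 member called in the last. RGMA was 4.74 and LDLRAD4 1.77 with FPKM. Over all genes, the calls higher and lower in labelled overexpression were 897 and 747, against 1873 and 1010 without a filter, 339 and 493 at 5 CPM and 1789 and 2484 at 1.5-fold. In shDCBLD2 they were 162 and 785, against 417 and 1272, 60 and 337, and 689 and 1618. Between the control lines they were 310 and 264, against 594 and 524, 96 and 84, and 987 and 932. With the other control library they were 1128 and 1254 in labelled overexpression and 311 and 1119 in shDCBLD2. Scaling moved the median of all genes most between the control lines, from -0.01 to -0.07 with library totals. Depth limits INHBA most, at 12 to 279 counts. No paired analysis was possible because each condition had 1 library.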

Other observations

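Further genes of the pathway list, picked after their values were seen, were called in at most 1 of the comparisons with a DCBLD2 line. In shDCBLD2 against sc, FSTL1, a follistatin relative, was read 4248 against 1777 times (log2 ratio 1.12, interval 1.04 to 1.20), THBS1, whose product thrombospondin can activate latent TGF-β, 3673 against 1643 times (1.02), the matrix protease gene MMP2 1269 against 521 times (1.14) and SNAI2, the transcription factor Slug, 193 against 83 times (1.06). PMEPA1, a SMAD-induced inhibitor, had 16795 against 8012 counts and, at a log2 ratio of 0.93, stayed under the 2-fold limit. In labelled overexpression against the empty vector, the ratios of these 5 genes were -0.30, 0.55, 0.19, 0.97 and -0.26, none called. For SNAI2 the control lines were themselves apart, at 1.74 CPM in the empty vector against 4.24 CPM in sc, beside 8.95 CPM in shDCBLD2.

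BAMBI, which encodes a pseudoreceptor, was read 1318 times in the library labelled overexpression against 542 times in the empty vector (1.43, interval 1.29 to 1.58), the BMP antagonist gene NOG 76 against 26 times (1.63) and the homeobox genes MSX1 and MSX2, known BMP targets, 280 against 127 and 475 against 207 times (1.28 and 1.34). DLX5, another homeobox gene and BMP target, had 27 counts there and 0 in each other library, and was under the expression filter. Other genes downstream of BMPs were not called in that comparison. The members ID1 and ID3 were at -0.26 and 0.13 and SMAD6 at 0.19, and ATOH8 was read 457 against 565 times (27.7 and 30.8 CPM). In shDCBLD2 against sc, BAMBI was at -0.76, NOG at 0.41, MSX1 at 0.51 and MSX2 at 0.07. Whether the comparisons differ for any of these genes was not tested.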
